A study of Catharanthus roseus with 3 samples.

Results

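Strictosidine synthase and strictosidine beta-glucosidase stand at the centre of terpenoid indole alkaloid (TIA) biosynthesis in Catharanthus roseus, the Madagascar periwinkle. They were represented here by 3 transcripts, chosen by their identifiers: STR1 (Cr_TC04185) and STR2 (Cr_TC05794), both annotated as strictosidine synthases, and SGD (Cr_TC57924), annotated as strictosidine beta-glucosidase. All 3 were found among the 59220 assembled transcripts. The names are the putative annotation of the transcriptome, since the expression values are listed by identifier alone. Leaf, root and flower of adult plants of the variety Prabal, untreated and grown in the field, were sequenced as 1 library each. How many plants went into a library, and the age of the leaves or flowers, is not given in the sources used here. With 1 library per organ there was no spread between plants, so no test was run and every comparison below is between these 3 libraries. The authors of the study also measured SGD by real-time PCR, with at least 3 biological replicates per tissue. They report patterns similar to the sequencing for the genes they chose. Those measurements are not part of the data used here.

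Strictosidine synthase works in the vacuole, where it condenses an amine made from tryptophan with the aldehyde group of secologanin, an iridoid glucoside. All TIAs of the plant derive from the resulting glucoside, strictosidine. SGD, a nuclear enzyme, then removes the glucose, and the unstable aglycone leads through cathenamine to catharanthine, to tabersonine and vindoline, and to the alkaloids of the root such as ajmalicine. Proteins related to strictosidine synthase are also found in plants that make none of these alkaloids. The transcript sequences were not used here, so the names STR1 and STR2 are kept as given and say nothing about the activity of either product.

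Levels were taken as RPKM, reads scaled by transcript length and library size, which allows transcripts to be compared within a library. The deposited header reads base mean, so the unit is inferred from the values, as described under the processing. Every ratio of different transcripts within an organ rests on that inference. The values summed to between 452743 (leaf) and 471970 (root) per library, and between 44675 (leaf) and 48814 (root) transcripts were above 0. The organ labels were set against pathway genes known for their organ. T19H, a tabersonine hydroxylase of roots, was listed at 8.96 RPKM in root, 0.01 in leaf and 0 in flower. T16H and DAT, enzymes of vindoline synthesis in aerial organs, were lowest in root at 0.04 and 0.37 RPKM. The values of T19H, T16H and DAT went in the direction of the labels. D4H, of the same branch as T16H and DAT, was also lowest in root at 2.39. It stood at 3.45 in flower and 63.2 in leaf, so it set leaf apart but hardly root from flower. In whole organs, fewer cells that express a gene and less RNA per cell cannot be told apart.

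The 3 members were each highest in a different organ. STR1 led in flower, STR2 in root and SGD in leaf. STR1 stood at 34.8 RPKM in flower against 18.4 in leaf and 8.31 in root. Flower was thus 1.89-fold above leaf, and leaf was 2.21-fold above root. For STR2 the root library gave 90.8 RPKM, the leaf library 36.3 and the flower library 17.5. Its order was the reverse of that of STR1, with root 2.50-fold above leaf and leaf 2.07-fold above flower. SGD reached 139.8 RPKM in leaf but 33.8 in root and only 4.25 in flower. It spanned the widest range of the members, with leaf 4.14-fold above root and root 7.95-fold above flower.

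**Figure D1:**
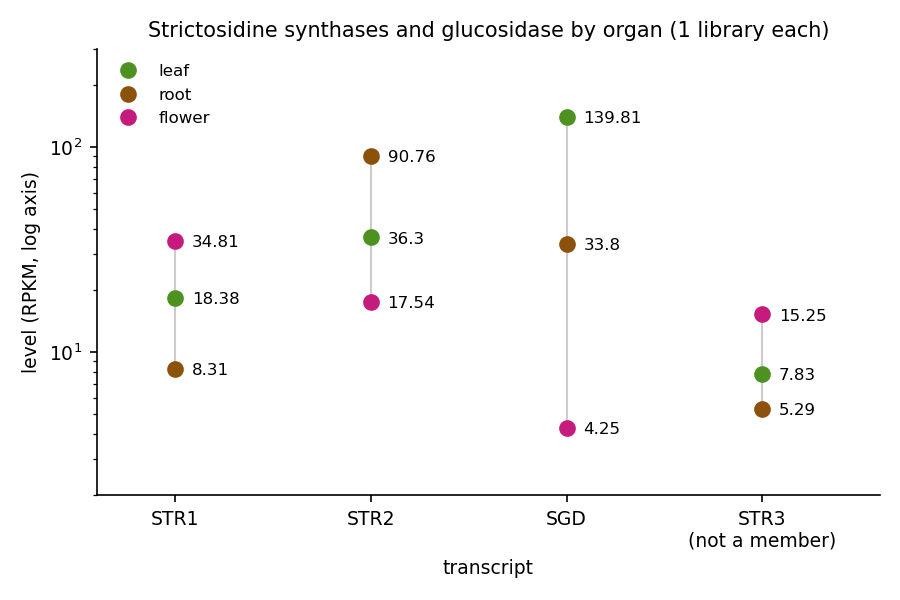
Level of each transcript (x axis) in RPKM on a log axis (y axis); each point is 1 library, coloured by organ, and the grey line spans the organs. STR1 was highest in flower (34.8 RPKM), STR2 in root (90.8) and SGD in leaf (139.8), and STR3, shown for comparison, followed the organ order of STR1.

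None of the members was among the scarce transcripts in the organ where it led. SGD ranked 346 of 59220 in leaf, within the highest 0.584%, but 2837 in root and 15067 in flower. STR2 ranked 841 in root, 2678 in leaf and 6135 in flower. The rank of STR1 was 2920 in flower, 6029 in leaf and only 9814 in root. The lowest level of any member was therefore that of the glucosidase in flower, the organ where STR1 stood highest.

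The number of reads behind a value was not worked out. If the RPKM were scaled by the uniquely mapped reads of each library, and if every member were as short as the shortest transcript kept in the assembly, SGD in flower would rest on 72 reads and STR1 in root on 128. The other values would rest on 297 reads or more. These are the fewest reads each value could have under those conditions, and they give a counting error (SD) of 11.8% for SGD in flower and of 8.83% or less elsewhere. The intervals given below are 95% counting intervals at these fewest reads. They do not cover differences between plants, leaf ages, RNA extractions or library preparations, nor the fact that reads are not independent molecules.

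Which synthase transcript prevailed differed between organs. In flower, STR1 exceeded STR2 1.98-fold (interval 1.73 to 2.28). In leaf the balance was nearly the mirror image, with STR2 exceeding STR1 1.97-fold (1.72 to 2.26). In root, STR2 exceeded STR1 10.9-fold (9.12 to 13.1). STR1 accordingly made up 66.5% of the RPKM of the pair in flower, 33.6% in leaf and just 8.39% in root.

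The ratio of STR1 to STR2 in flower was 21.7 times that in root (17.3 to 27.2) and 3.92 times that in leaf (3.23 to 4.76), and in leaf it was 5.53 times that in root (4.41 to 6.93). A change of this ratio between organs depends neither on how the libraries were scaled nor on the transcript lengths, because both cancel. It does depend on read assignment, and it may depend on the removal of duplicate reads before mapping, which was not examined. The authors kept uniquely mapped reads only, so reads from any stretch that the synthase transcripts share would have been left out, and how long such stretches are was not examined.

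Swings of this size were not rare within the pathway. Over the 171 pairs of the 19 named pathway transcripts that were above 0 in every organ, the ratio of a pair changed by a median of 32.2-fold between the organs where it was highest and lowest, and STR1 with STR2 ranked 101. The pair of STR1 with SGD moved further, by 62.3-fold (rank 71), and STR2 with SGD by 15.9-fold (rank 112). Ranks 1 to 10 were all pairs with T16H, which stood at 0.04 RPKM in root. Values this near 0 raise the median and push the other pairs down the ranking.

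The summed level of both synthases spanned a narrower range over the organs than either transcript, 1.89-fold against 4.19-fold for STR1 and 5.17-fold for STR2. Since STR1 and STR2 had opposite organ orders, adding them tends to narrow the range, so this is no separate result. STR1 and STR2 together came to 54.7 RPKM in leaf and 52.4 in flower, and to 99.1 in root. Leaf and flower thus held nearly the same sum, 1.04-fold apart, with opposite composition, and root was 1.81-fold above leaf and 1.89-fold above flower. The small excess of leaf over flower turned with the scaling of the libraries. Its ratio was 0.949 when the upper quartiles were set equal and 0.961 after median-ratio scaling. Root then stood 2.56-fold and 2.31-fold above leaf. That is closer to the span of STR1 under the same scalings, 3.26-fold and 3.56-fold. The excess also turned when STR3, a further synthase transcript described below, was added, with sums of 62.5 RPKM in leaf and 67.6 in flower.

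**Figure D2:**
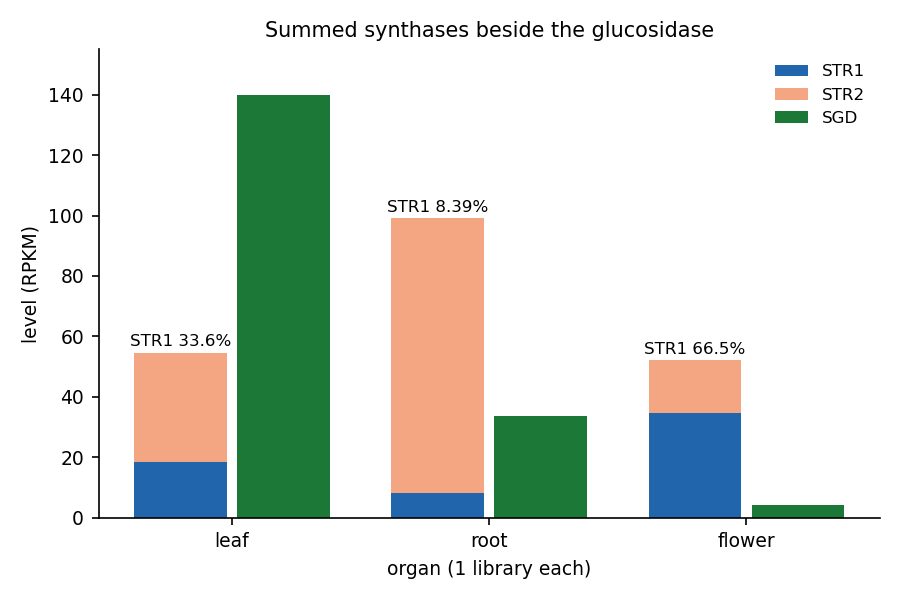
RPKM (y axis, from 0) of STR1 and STR2 stacked, beside SGD, in the 3 organs (x axis, 1 library each); the number above each stack is the share of STR1 in the stack. Leaf and flower stacks are of similar height with STR1 at 33.6% and 66.5%, while SGD goes from 139.8 RPKM in leaf to 4.25 in flower.

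The glucosidase did not follow the summed synthases. The level of SGD exceeded STR1 and STR2 together 2.56-fold in leaf, whereas the synthases exceeded SGD 2.93-fold in root and 12.3-fold in flower. The ratio of SGD to the sum was therefore 7.49 times higher in leaf than in root and 31.5 times higher in leaf than in flower. Against the single transcripts, SGD was 7.61-fold above STR1 in leaf and 4.07-fold above it in root, but STR1 was 8.19-fold above SGD in flower. STR2 stood below SGD in leaf only, where SGD was 3.85-fold higher, and exceeded it 2.69-fold in root and 4.13-fold in flower. The sign of the comparison in root thus depended on which synthase was taken.

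Transcripts were also compared by a rule of size in place of a test. A transcript counted as different between organs where the log2 ratio of (RPKM + 1) was at least 1, which is 2-fold, and the larger value was at least 10 RPKM. The pseudocount of 1 understates the change of low values. For leaf against flower this rule was met by 42.4% of 12310 transcripts, for root against flower by 44.4% of 11639 and for leaf against root by 54.5% of 12517. It was met in 8 of the 9 comparisons of a member, all but STR1 in leaf against flower. With backgrounds this high, reaching the line says little about a single transcript. The comparisons also share libraries and are not independent of each other.

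On this scale SGD stood furthest from 0 of the members in leaf against flower, with a log2 fold change of 4.75, at or above 99.5% of the transcripts compared. In root against flower it was 2.73 and in leaf against root 2.02. STR2 had 2.31 in root against flower and -1.30 in leaf against root, and lay at the line in leaf against flower with 1.01. STR1 had -1.94 in root against flower and -0.89 in leaf against flower, and lay near the line in leaf against root with 1.06. The median of all transcripts compared was 0.07 in leaf against flower, -0.18 in root against flower and 0.26 in leaf against root. With a common upper quartile, STR2 in leaf against flower (0.87) and STR1 in leaf against root (0.60) were within 2-fold. STR1 in leaf against flower was then past it (-1.01).

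**Figure D3:**
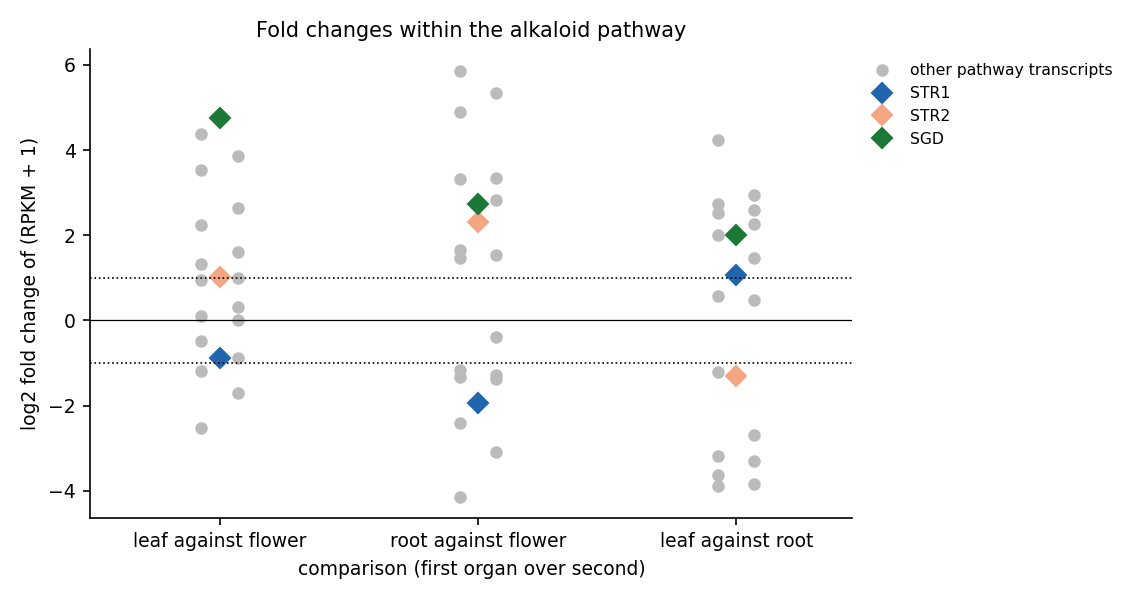
Log2 fold change of (RPKM + 1) (y axis) for the 3 members (diamonds) and 17 other pathway transcripts (grey points) in each comparison (x axis, first organ over second); dotted lines mark 2-fold. SGD is the highest point in leaf against flower (4.75), and STR1 and STR2 lie on opposite sides of 0 in all 3 comparisons.

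The organ patterns of the members were shared by other transcripts to different degrees. Among the 13867 transcripts that reached 10 RPKM in some organ, 2145 had the order of STR1 (flower, leaf, root), 1387 that of STR2 (root, leaf, flower) and 1452 that of SGD (leaf, root, flower). Of those in the order of STR1, 31.3% had a ratio of highest to lowest organ at least as large as its 4.19. For STR2, with a ratio of 5.17, the share was 36.6%. For SGD, with a ratio of 32.9, it was 4.20%, or 61 of 1452 transcripts. The span of SGD between leaf and flower was thus less common for its order than the spans of the synthases were for theirs.

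The named pathway transcripts closest to each member were found by organ shares, that is, the RPKM of each organ as a percent of the sum over the 3 organs. SGD had 78.6% of its sum in leaf, most of the rest in root and 2.39% in flower. It was closest to G10H (Cr_TC57680), which hydroxylates geraniol early in the iridoid branch, with a largest difference of 2.29 percentage points, and next to iridoid synthase IS (Cr_TC07184), with 7.25. STR2 had 25.1% in leaf, 62.8% in root and 12.1% in flower. It was closest to ASA (Cr_TC39398), anthranilate synthase alpha, which starts the indole branch, with a largest difference of 3.77, and next to CPR, a reductase serving cytochrome P450 enzymes, with 17.9. CPR had 7.23% in leaf and 24.4% in flower, so its order of leaf and flower was the reverse of that of STR2.

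STR1 had 29.9% of its sum in leaf, 13.5% in root and 56.6% in flower. It was closest to STR3 (Cr_TC10520), the third transcript annotated as a strictosidine synthase, with a largest difference of 5.13, and next to T16H, with 14.4. The likeness to T16H was loose, since T16H had only 0.164% of its sum in root. The ratio of STR1 to T16H moved by 103-fold over the organs. Likeness over 3 libraries is a weak description. Over all transcripts reaching 10 RPKM, 109 lay within 5 percentage points of STR1 in every organ, 77 of STR2 and 27 of SGD.

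STR3 is not among the 3 members but bears the same name, and its identifier was read from the pathway scheme of the study. Its level of 15.25 RPKM in flower was above its 7.83 in leaf and its 5.29 in root. It was below STR1 and STR2 in every organ, though close to STR2 in flower. STR1 exceeded it 2.35-fold in leaf, 1.57-fold in root and 2.28-fold in flower, so that this ratio moved by only 1.49-fold over the organs, rank 170 of the 171 pairs. STR2, in contrast, exceeded STR3 4.64-fold in leaf, 17.2-fold in root and only 1.15-fold in flower. No counting interval was worked out for the ratios with STR3. With all 3 synthases counted, STR1 made up 51.5% of the sum in flower, 29.4% in leaf and 7.96% in root, and STR2 held 87.0% in root.

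**Figure D4:**
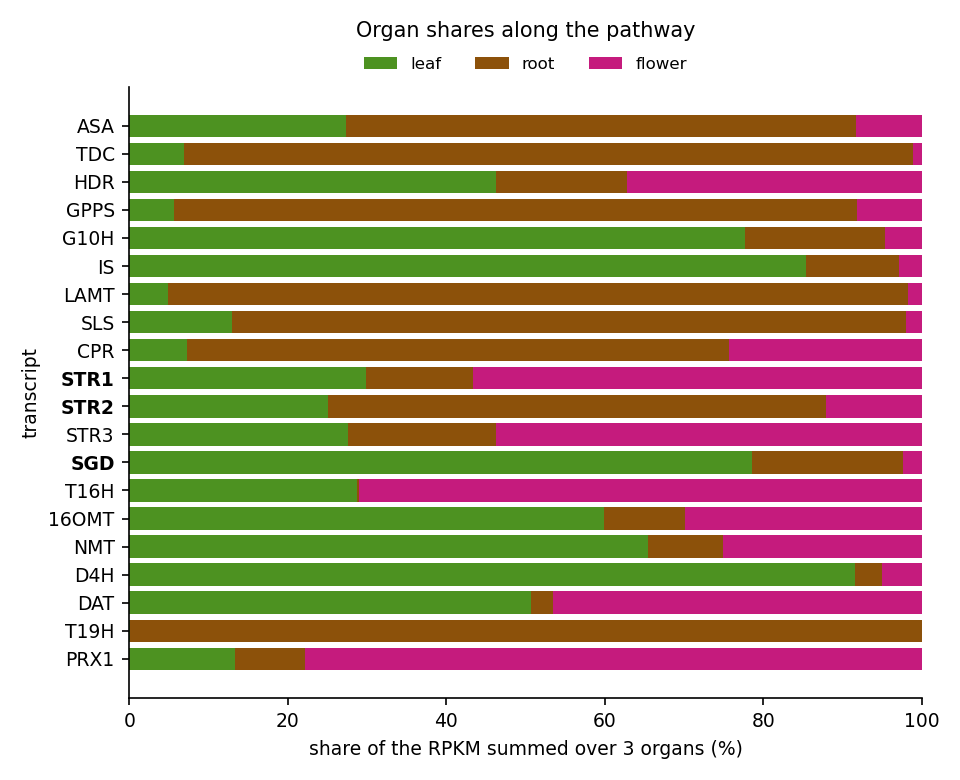
Share of the RPKM summed over leaf, root and flower (x axis, percent) for 20 named pathway transcripts (y axis, in pathway order from the indole and terpenoid branches down; members in bold). SGD has 78.6% in leaf like G10H and IS, STR2 has 62.8% in root like ASA, and STR1 has 56.6% in flower like STR3.

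The enzymes that supply tryptamine and secologanin, the substrates of strictosidine synthase, were set beside the summed synthases. The level of TDC, which makes tryptamine, was 191 RPKM in root but 14.5 in leaf and as low as 2.29 in flower. It exceeded the sum of STR1 and STR2 1.93-fold in root, while the synthases exceeded it 3.77-fold in leaf and 22.9-fold in flower. That of SLS, which makes secologanin, was 577 RPKM in root, followed by leaf with 87.9 and flower with 13.3. It exceeded the summed synthases 1.61-fold in leaf and 5.82-fold in root, whereas they exceeded it 3.94-fold in flower. In flower the synthases thus stood above TDC and SLS before them and above SGD after them. In root they stood below TDC and SLS and above SGD, and in leaf above TDC and below SLS and SGD.

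The other 17 named pathway transcripts were counted by the same rule of size. In leaf against flower 7 were higher and 3 lower, in root against flower 6 and 6, and in leaf against root 6 and 6. Over all transcripts compared, 21.5% were higher and 20.9% lower in leaf against flower, 20.8% and 23.6% in root against flower, and 29.8% and 24.8% in leaf against root. The minimum of 10 RPKM left 14, 12 and 13 of the 17 to be compared. Their median log2 fold change was 1.13, 0.16 and 0.57, beside 0.07, -0.18 and 0.26 over all transcripts that met the same minimum. In root against flower all 12 were past 2-fold, 6 on each side, and the median of 0.16 only marks the gap between them. Without the minimum, 7 were higher and 3 lower, 9 and 7, and 8 and 7. The medians over all 17 were 0.94, 1.48 and 0.57. Both transcripts of the indole branch, ASA and TDC, were higher in leaf and in root than in flower, as STR2 and SGD were. Of the 6 counted with the iridoid branch, which builds secologanin, 4 were higher in root than in flower and none lower, while in leaf 3 were higher and 1, CPR (-1.71), was lower. G10H and IS, the closest to SGD, were among these 3 but stayed under 10 RPKM in root and flower (8.14 and 9.06 RPKM in root), and so were not compared there.

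After strictosidine, the vindoline branch differed from SGD in its contrast of root and flower. Of its 5 transcripts, 3 were lower by this rule in the root library than in the flower library and none was higher, whereas SGD was 7.95-fold higher in root. D4H and DAT stayed under the minimum there and were not compared. Over all transcripts compared, 23.6% were lower in root than in flower. Of the 5, 1 was lower with equal upper quartiles, a pseudocount of 10 or the 4-fold rule, and 2 with median-ratio scaling. With a minimum of 50 RPKM, which none of them reached in root or flower, the count was 0. In leaf against root, 3 of the 5 met the minimum and all 3 were higher in leaf, as SGD was. Over all transcripts compared, 29.8% were higher in leaf. T16H and DAT stayed under the minimum, at 7.01 and 6.85 RPKM in leaf against 0.04 and 0.37 in root. Without the minimum all 5 counted as higher in leaf. D4H, which acts late in the branch, was the one closest to SGD, with 91.5% of its summed RPKM in leaf and a largest difference of 15.5 percentage points. PRX1, a peroxidase placed at the coupling of vindoline and catharanthine, had 270.2 RPKM in flower, the organ where SGD was at its lowest.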

How the data were processed

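Total RNA of leaf, root and flower (1 library each) was sequenced on an Illumina instrument. Reads were filtered and duplicates removed, and the authors mapped them to the assembled transcripts with CLC Genomics Workbench, allowing at most 2 mismatches. The header of the deposited tables reads base mean, yet the values have 2 decimals and sums far too small for normalized read counts. They were therefore taken as the RPKM that the authors computed from uniquely mapped reads. The submitters' processing notes name DESeq. No whole reads could be recovered, and depth per value is known only as the lower limit given in the text. Ratios of RPKM and log2 ratios of (RPKM + 1) were computed, and a 2-fold change with the larger value at least 10 RPKM was counted. No p-value is given, since no organ has replicates.

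As alternatives, the pseudocount was set to 0.1 or 10, the minimum to none or 50 RPKM and the fold to 4, and the libraries were scaled in 3 other ways. Scaling the sum of the synthases was chosen after seeing the data. The genes named were the members, the pathway transcripts listed with a name and the 2 closest to each member. The members and lists were chosen with earlier results of these data known. A RefSeq gene table matched 0 of the 59220 identifiers, so no coordinates or sequences are given. The counting code was tested on simulated data. Python 3.11.15, numpy 2.4.6, pandas 2.3.3 and matplotlib 3.10.9 were used.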

Additional observations from a re-analysis of the deposited data

Results flagged for a closer look

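The balance of STR1 and STR2 pointed in opposite directions in flower and in the other organs: STR1 was the higher transcript in flower, and STR2 in leaf and in root. The ratio of STR1 to STR2 in flower was 3.92 times that in leaf and 21.7 times that in root. Each organ is 1 library, so the difference was not tested.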

How the results depend on the processing

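All 72 log2 fold changes of a member under an alternative kept their sign, but this was bound to happen. Another minimum, fold or pseudocount cannot turn a sign. The largest shift from scaling was -0.50 in log2 (upper quartile, leaf against root), smaller in size than every member fold change. Of the 72, 57 kept their side of the size rule. With a pseudocount of 10, STR1 in leaf against root (0.63) and STR2 in leaf against flower (0.75) were within 2-fold. By the median ratio these were 0.73 and 0.89. With a common upper quartile they were 0.60 and 0.87, and STR1 in leaf against flower was past 2-fold at -1.01. The 4-fold rule was not met by STR1 in root against flower (-1.94) and leaf against root (1.06), nor by STR2 in leaf against flower (1.01) and leaf against root (-1.30). A minimum of 50 RPKM left out by construction STR1 in root against flower (-1.94) and leaf against root (1.06), STR2 in leaf against flower (1.01) and SGD in root against flower (2.73). SGD kept its side under all other alternatives.

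With 10 RPKM added to both, the STR1 to STR2 ratio was 0.613 in leaf, 0.182 in root and 1.63 in flower. With STR3 counted, STR1 made up 29.4% in leaf and 51.5% in flower, and SGD was 2.24 and 0.0629 times the synthases there. The ratio of SGD to the synthases in root turned from 0.341 to 4.07 with STR1 alone, since STR2 held most of the sum. With STR1 alone it was 7.61 in leaf and 0.122 in flower, and with STR2 alone 3.85 and 0.242.

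Of 48 counts of other pathway transcripts, 41 stayed within 1.5 times. Those lower in root against flower went from 6 to 3 with a pseudocount of 10 or a common upper quartile, and to 2 with 50 RPKM or 4-fold. With 50 RPKM, 3 were higher in leaf against flower and 3 in leaf against root; with 4-fold, 1 was lower in leaf against flower. No paired analysis was possible because each organ has 1 library. Leaving out a library was not possible for the same reason. The depth behind each value is known only as a lower limit at equal transcript length, so the values were not ranked by it.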
